A study of Mus musculus with 12 samples.

Results

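The genes described here encode the SOCS family of cytokine signalling inhibitors and the Pim kinases that signalling through the transcription factor STAT5 is known to induce. They are Cish, Socs1 to Socs7, Pim1 and Pim3, 10 genes among the 26219 RefSeq genes with a curated transcript on the numbered, X and Y chromosomes. They were chosen by name, and their rows are those in which the deposited peak lists give them as the gene with the nearest start site, or in which the deposited table of co-bound start sites lists them. Rows were found for 8 genes and none for 2 (Cish and Pim1). The rows hold 18 peaks, 8 of Jmjd2a and 10 of Jmjd2c.

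The peaks come from chromatin immunoprecipitation and sequencing of a pair of histone demethylases, Jmjd2a and Jmjd2c (also called Kdm4a and Kdm4c), in mouse granulocyte-macrophage progenitors (L-GMP) transformed by the leukaemia fusion MLL-AF9. All libraries are from C57BL/6 cells of the genotype Jmjd2a/b/cf/f;Rosa26::CreERT2, in which all 3 demethylase genes are floxed and a tamoxifen-dependent Cre is expressed from the broadly active Rosa26 locus. The cells are lines derived from leukaemic mice, kept in 20% serum with 10 ng/ml interleukin-3. The groups are Jmjd2a and Jmjd2c in cells given 500 nM 4-hydroxytamoxifen for 96 h (OHT), with 1 library each, and in untreated control cells (Ctrl), with 1 library each, and the histone marks H3K9me3 and H3K36me3, with 2 libraries in each condition. The files analysed hold 1 peak list per protein and no value per library, so neither OHT against Ctrl nor the marks could be tested, sequencing depth is unknown, and no replicate check exists. The sources used here do not say which libraries entered a list, and peak positions do not allow a check of the cell type.

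Interleukin-3 binding activates the kinase JAK2, which phosphorylates STAT5. STAT5 dimers enter the nucleus, bind a palindromic DNA element called GAS, and switch on genes that include Cish, Socs1, Socs2, Socs3 and Pim1. SOCS proteins bind phosphorylated receptors or JAKs through an SH2 domain and recruit a ubiquitin ligase through their SOCS box, which closes a negative feedback loop. Pim proteins are serine/threonine kinases that are active once made and promote survival and growth of blood cells. Jmjd2a and Jmjd2c demethylate H3K9me3 and H3K36me3, and their tudor domains bind methylated histones.

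The sequences below show what the start sites with and without a peak look like. Each runs 5′ to 3′ along the gene, from 200 bases before the RefSeq start to 24 bases from it on (RefSeq, GRCm38.p6, the primary assembly of mm10). The first pair shows both genes in which the GAS consensus TTCNNNGAA was found, and its matches are in capitals.
Cish, chr9:107296459-107296682, plus strand: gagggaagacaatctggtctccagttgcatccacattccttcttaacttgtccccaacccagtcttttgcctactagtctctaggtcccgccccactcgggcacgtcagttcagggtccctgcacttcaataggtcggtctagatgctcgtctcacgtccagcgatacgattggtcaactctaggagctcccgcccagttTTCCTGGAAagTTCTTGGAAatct
Socs3, chr11:117969343-117969566, minus strand: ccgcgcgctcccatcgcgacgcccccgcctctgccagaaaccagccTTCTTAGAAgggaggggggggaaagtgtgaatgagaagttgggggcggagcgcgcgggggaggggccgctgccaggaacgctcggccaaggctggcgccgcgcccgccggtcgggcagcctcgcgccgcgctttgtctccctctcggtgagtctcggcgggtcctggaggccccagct
The second pair shows Pim1, which had no peak of either protein, and Pim3, which lay under peaks of both. CG dinucleotides are in capitals.
Pim1, chr17:29490585-29490808, plus strand: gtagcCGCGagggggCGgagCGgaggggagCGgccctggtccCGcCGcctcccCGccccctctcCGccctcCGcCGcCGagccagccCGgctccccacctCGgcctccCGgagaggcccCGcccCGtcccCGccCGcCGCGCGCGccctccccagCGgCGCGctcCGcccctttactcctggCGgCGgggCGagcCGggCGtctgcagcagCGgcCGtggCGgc
Pim3, chr15:88861994-88862217, plus strand: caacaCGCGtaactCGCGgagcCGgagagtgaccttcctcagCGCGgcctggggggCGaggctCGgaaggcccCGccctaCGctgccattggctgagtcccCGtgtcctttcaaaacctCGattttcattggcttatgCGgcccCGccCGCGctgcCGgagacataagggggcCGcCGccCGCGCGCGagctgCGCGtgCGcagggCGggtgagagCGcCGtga

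Jmjd2c was called at the start of most of these genes, and Jmjd2a at a share near that over all genes. A gene was counted as occupied when a peak covered or came within 1000 bp of one of its start sites in the deposited files. Genes with no start site in those files were counted as unoccupied. With RefSeq start sites the shares were 43.0% for Jmjd2c and 30.8% for Jmjd2a, of the 19532 genes for which one was used. Fewer genes were called than by the rule above (8405 against 9941 for Jmjd2c, 6021 against 7179 for Jmjd2a), in a smaller set. Jmjd2c occupied 7 of the 10 genes, namely Socs1, Socs2, Socs4, Socs5, Socs6, Socs7 and Pim3 (70%, exact Clopper-Pearson 95% interval 34.8 to 93.3). Over all RefSeq genes the same rule called 37.9%, and over protein-coding genes 44.6%, both inside that interval. Jmjd2a occupied 3 of the 10, Socs5, Socs6 and Pim3 (30%, 6.67 to 65.2), against 27.4% of all genes and 32.3% of protein-coding genes. These same 3 genes had both proteins, beside 24.5% of all genes and 28.9% of protein-coding genes, and they are the only members with a window in the authors' deposited table of co-bound start sites. Jmjd2c without Jmjd2a was found at 4 genes, Socs1, Socs2, Socs4 and Socs7 (40%, 12.2 to 73.8), beside 13.4% of all genes and 15.7% of protein-coding genes. Neither protein was found at 3, Cish, Socs3 and Pim1 (30%, 6.67 to 65.2), beside 59.2% of all genes and 52.0% of protein-coding genes. The intervals of both patterns hold the shares over all genes. No member had Jmjd2a alone, a pattern of 2.87% of all genes. With the wider 50% of the peaks of each list alone, Jmjd2c was counted at 4 members and both proteins at 1, Pim3, while the shares over all genes came to 22.9% and 10.0%. The intervals cover counting error over genes, which are not replicates, and a missing call can be a site below the unknown threshold of the list.

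**Figure D1:**
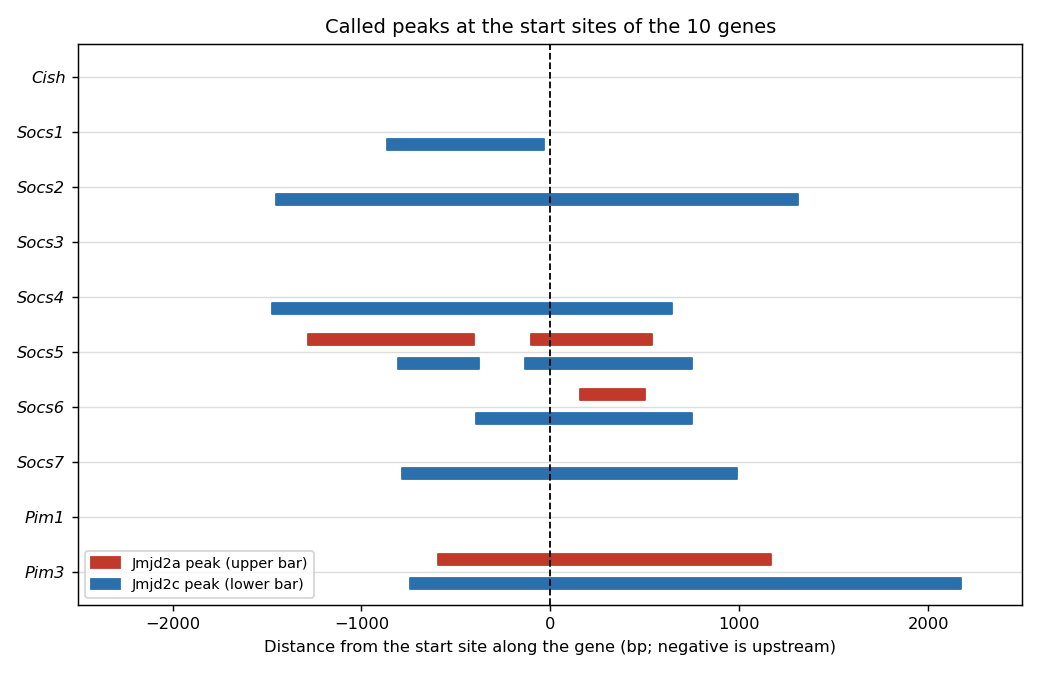
Called peaks around the start sites of the 10 genes, with distance along the gene in bp on the x axis and 1 row per gene, Jmjd2a above Jmjd2c; bars span each peak and the dashed line is the start site. Cish, Socs3 and Pim1 have no bar, and in Socs5, Socs6 and Pim3 the Jmjd2a peaks overlap Jmjd2c peaks.

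The SOCS family is commonly divided into Cish with Socs1 to Socs3, short proteins strongly induced by cytokines, and Socs4 to Socs7, which have longer N-terminal regions and are not known chiefly as cytokine-induced genes. Jmjd2a was called at 0 of the 4 genes of the first group and at 2 of the 4 genes of the second, beside 27.4% of all genes. Jmjd2c was called at 2 of 4 in the first group and at 4 of 4 in the second, beside 37.9% of all genes. With 4 genes in each, these counts do not establish a difference. This division was laid over the calls after they were known, and no test of it was made.

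Cish, whose product CIS blocks STAT5 docking on the receptor, had no peak of either protein at its RefSeq start (107296659 on chromosome 9; gene to 107302784, plus strand). The nearest Jmjd2a peak spanned 753 bp (107289024 to 107289776) and ended 6883 bp upstream, near the start of Mapkapk3, a kinase of the p38 pathway. The nearest Jmjd2c peak lay 41.1 kb downstream at Hemk1. Cish thus had a Jmjd2a peak closer than a Jmjd2c peak.

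Socs3, the inhibitor of gp130 and granulocyte colony-stimulating factor receptor signalling, likewise had no peak within 1 kb of its start (117969366 on chromosome 11, minus strand). The single row that names it is a Jmjd2a peak of 348 bp (117946427 to 117946774), 22592 bp downstream of the start and 19305 bp past the end of the gene. That peak overlapped no Jmjd2c peak and no RefSeq gene, and it was wider than 9.90% of the Jmjd2a peaks over 10 kb from a start site. The nearest Jmjd2c peak lay 17.1 kb upstream at Pgs1, a phospholipid synthesis gene.

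Socs1, which inhibits JAK kinases directly and restrains interferon-gamma signalling, had a Jmjd2c peak of 834 bp (chromosome 16, 10785568 to 10786401). The peak ended 32 bp upstream of the start (10785536, minus strand) and did not cover it. Among the 9941 genes with Jmjd2c, 666 (6.70%) had every start site outside a Jmjd2c peak. The peak was narrow, wider than 14.8% of the Jmjd2c peaks within 1 kb of a start site, and covered 41.7% of the window reaching 1 kb to each side of the start. The nearest Jmjd2a peak was 49.5 kb away at Rmi2, a subunit of the complex of the BLM helicase.

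Socs2, best known as a brake on growth hormone signalling, had a broad Jmjd2c peak of 2764 bp (chromosome 10, 95415547 to 95418310), while the nearest Jmjd2a peak lay 84.5 kb away. The Jmjd2c peak was wider than 98% of those within 1 kb of a start site and covered 100% of the window, against a median of 69.6% (interquartile range 53.9 to 83.4) over all genes with Jmjd2c. It spanned the starts of Socs2 (minus strand) and of the noncoding RNA gene 5730420D15Rik, which runs the other way. The peak cannot be assigned to either gene.

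Socs4, linked to epidermal growth factor receptor signalling, also shares its promoter. Its Jmjd2c peak spanned 2113 bp (chromosome 14, 47275672 to 47277784), wider than 90.2% of Jmjd2c peaks near start sites. It lay over the starts of Socs4 (plus strand) and of Wdhd1, a DNA replication factor gene on the minus strand. The nearest Jmjd2a peak was 87.5 kb away, the farthest among the SOCS genes.

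Socs7, an adaptor linked to insulin signalling, had a Jmjd2c peak of 1774 bp (chromosome 11, 97361765 to 97363538). The peak reached 786 bp upstream and 987 bp downstream of the deposited start (97362551, plus strand). RefSeq places the start 259 bp farther upstream, at 97362292, also under the peak. The peak covered 88.7% of the window around the deposited start, more than at 83.5% of the genes with Jmjd2c. The nearest Jmjd2a peak lay 37.7 kb downstream. Among the members with Jmjd2c alone, Socs2 (100%), Socs7 (88.7%) and Socs4 (82.1%) had more of the window covered than the median gene of that pattern (66.2%, interquartile range 48.8 to 81.5), and Socs1 (41.7%) had less.

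Socs5, which like Socs4 is linked to epidermal growth factor receptor signalling, had a split pattern, with a pair of peaks in each list. The Jmjd2a peaks spanned 880 bp (chromosome 17, 87106396 to 87107275) and 643 bp (87107577 to 87108219), with 301 bp between them. The Jmjd2c peaks spanned 427 bp (87106875 to 87107301) and 883 bp (87107544 to 87108426), with 242 bp between them. At least 2 peaks of each protein near a start site were found at 48 of the 6426 genes with both (0.747%). The downstream peaks covered the deposited start (87107679, plus strand), and the upstream ones ended 404 bp (Jmjd2a) and 378 bp (Jmjd2c) before it.

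Where the start of Socs5 lies matters for this pattern. RefSeq places it 401 bp farther upstream, at 87107278, which is under the upstream Jmjd2c peak and 3 bp outside the upstream Jmjd2a peak. The upstream Jmjd2c peak was wider than 1.02% of those near start sites. Together the Jmjd2a peaks of Socs5 summed to 1523 bp and its Jmjd2c peaks to 1310 bp, and within the 1 kb window Jmjd2a covered 62.0% and Jmjd2c 65.5%. Jmjd2a coverage exceeded that of 81.6% of genes with Jmjd2a, and Jmjd2c coverage that of 42.5% of genes with Jmjd2c.

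Socs6, which binds the activated stem cell factor receptor KIT, had a small Jmjd2a peak inside a larger Jmjd2c peak. The Jmjd2a peak spanned 347 bp (chromosome 18, 88893705 to 88894051), lay 156 bp downstream of the start (88894207, minus strand) and was wider than 3.60% of Jmjd2a peaks near start sites. The Jmjd2c peak spanned 1143 bp (88893459 to 88894601), covered the start, and held the Jmjd2a peak whole. A Jmjd2a peak that covers no start site was not unusual, being the case at 2192 of the 7179 genes with Jmjd2a (30.5%). Jmjd2a covered 17.3% of the window and Jmjd2c 57.1%, both below the medians of 41.8% and 69.6% over the genes called for each protein.

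The Pim genes, whose kinases share substrates, differed. Pim3 carried the widest peaks of both lists among the 10 genes, a Jmjd2a peak of 1761 bp (chromosome 15, 88861602 to 88863362) and a Jmjd2c peak of 2921 bp (88861450 to 88864370). They were wider than 97.8% of Jmjd2a peaks and 98.7% of Jmjd2c peaks near start sites. The Jmjd2a peak lay wholly inside the Jmjd2c peak, which reached 744 bp upstream and 2176 bp downstream of the start (88862194, plus strand). Pim1 had no row, and from its RefSeq start (29490785 on chromosome 17, plus strand) the nearest peaks were 124 kb away for Jmjd2a, named for Rnf8, and 59.0 kb away for Jmjd2c, named for Tbc1d22b. Pim2, the other Pim kinase gene, is not one of the 10 and had both proteins, with a Jmjd2a peak of 446 bp and a Jmjd2c peak of 676 bp.

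**Figure D2:**
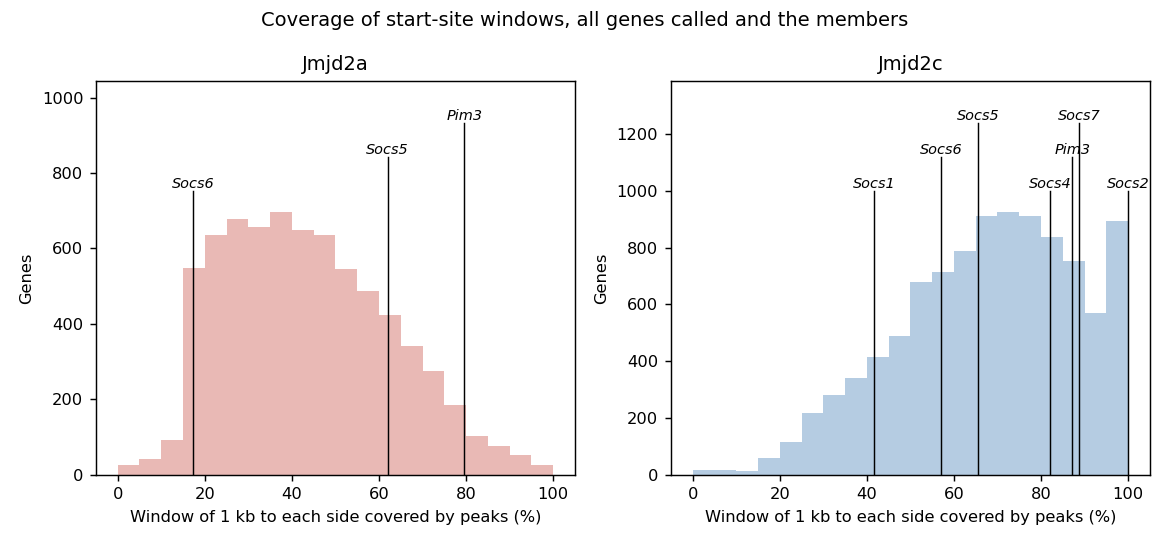
Histograms of the share of the window reaching 1 kb to each side of a start site that peaks cover (x axis, %), over the 7179 genes with Jmjd2a (left) and the 9941 genes with Jmjd2c (right), with lines at the members called for each protein. Pim3 (79.6%) and Socs5 (62.0%) lie on the high side for Jmjd2a and Socs6 (17.3%) on the low side, and for Jmjd2c the members run from Socs1 (41.7%) to Socs2 (100%).

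Of the 18 peaks, 6 lay over 10 kb from a start site in the deposited annotation, 4 of Jmjd2a and 2 of Jmjd2c, all downstream of the gene they are named for. Besides the Socs3 peak, Pim3 was the nearest start for a shared site with a Jmjd2a peak of 1275 bp (chromosome 15, 88890427 to 88891701) inside a Jmjd2c peak of 1476 bp (88890345 to 88891820). This site began 28151 bp downstream of the Pim3 start and lay in RefSeq gene Ttll8, a tubulin ligase-like gene on the minus strand, 567 bp from its 3′ end at 88889778. Its Jmjd2a peak was wider than 96.4% and its Jmjd2c peak wider than 88.4% of the peaks of each list over 10 kb from a start site. Among such distal peaks 28.0% of Jmjd2a and 40.6% of Jmjd2c peaks overlapped the other list.

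Socs7 was the nearest start for a further shared site and for a lone Jmjd2a peak. The lone peak spanned 347 bp (chromosome 11, 97400227 to 97400573) and began 1685 bp past the end of Socs7. The shared site had a Jmjd2a peak of 405 bp (97404372 to 97404776) inside a Jmjd2c peak of 846 bp (97404342 to 97405187). The Jmjd2c peak covered 97404357, where RefSeq (GRCm38.p6) begins the interval of another gene, Arhgap23. The deposited lists place the start of Arhgap23 at 97450160. Which gene has the nearest start, for this site and for the lone peak, thus depends on the annotation used.

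**Figure D3:**
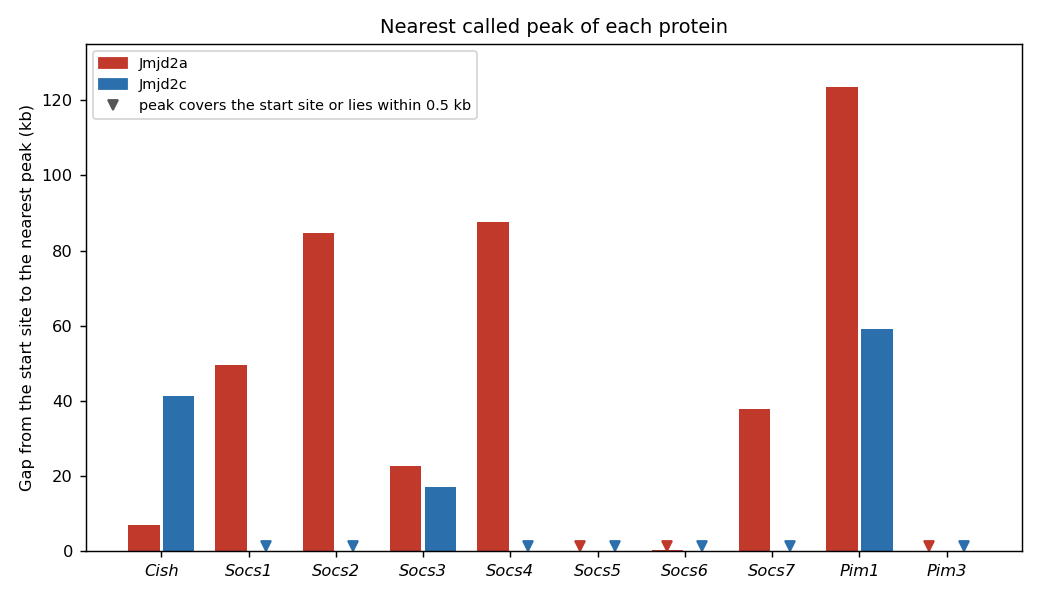
Gap in kb from each gene's start site to the nearest peak of Jmjd2a (left bar) and Jmjd2c (right bar), with triangles where a peak covers the start or lies within 0.5 kb. Jmjd2a triangles stand at 3 genes and Jmjd2c triangles at 7, and the largest gaps of both proteins are at Pim1.

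A promoter window of 300 bases, 250 before and 50 from the RefSeq start on, was given by the RefSeq table for 6 of the 10 genes, namely Cish, Socs1, Socs3, Socs4, Pim1 and Pim3. The GAS consensus TTCNNNGAA reads the same on both strands, so a match counts once. It was found in 2 of the 6 genes, beside 9.16% of the 19528 RefSeq genes with a window. Counted by window, of which Pim1 has 2, it was in 2 of 7, beside 7.98% of 23307. Cish held 2 matches, TTCCTGGAA at bases 1 to 9 and TTCTTGGAA at bases 12 to 20 counted from the RefSeq start, and 0.451% of all windows held 2 or more. Socs3 held TTCTTAGAA from 154 to 146 bases before its start (chromosome 11, 117969512 to 117969520). Both genes with a match had neither protein, and the windows of Socs1, Socs4, Pim1 and Pim3 held none. Over all genes with a window the consensus was found in 8.17% of those with both proteins, 5.75% of those with Jmjd2a alone, 8.30% of those with Jmjd2c alone and 10.0% of those with neither. A match is a description of letters and does not show binding of STAT5.

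The unoccupied members did not all have CG-poor promoters. CG dinucleotides were counted as the mean over a gene's windows. Socs3 had 31, more than 87.8% of genes, and Cish had 11. Pim1 had 42 in the window of its upstream start and 5 in that of its second RefSeq start, a mean of 23.5, more than 74.9% of genes. Pim3, occupied by both proteins, had 40, and Socs4 and Socs1, with Jmjd2c alone, had 34 and 18. Across all genes with a window the median was 23.0 for genes with both proteins, 21.0 with Jmjd2a alone, 21.0 with Jmjd2c alone and 5 with neither. Of the 2390 genes with a mean at least that of Socs3, 51.0% had both proteins and 21.3% had neither, and of the 4904 with a mean at least that of Pim1, 2453 had both and 1050 (21.4%) had neither.

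**Figure D4:**
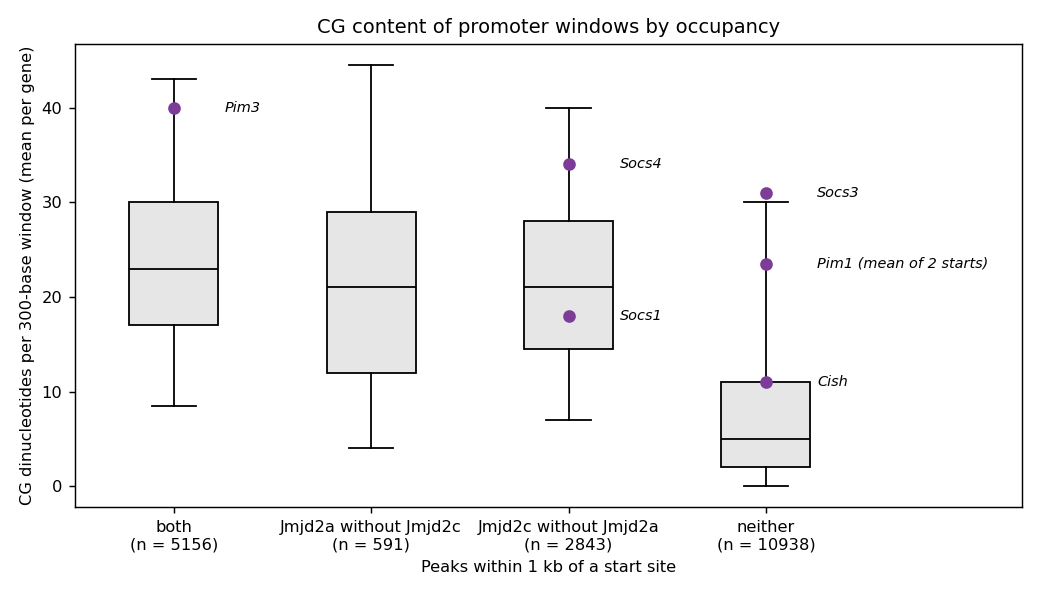
CG dinucleotides per 300-base promoter window (y axis) for all genes by occupancy, as the mean over a gene's windows, with boxes at the quartiles, a line at the median and whiskers at the 5th and 95th percentiles; purple points are the members, by the same mean. Socs3 (31) lies just above the upper whisker of the genes with neither protein (30) and Pim1 (23.5) between their upper quartile (11) and that whisker.

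Other lists of the pathway were counted by the same rule, for context. Over all genes that rule called 27.4% for Jmjd2a and 37.9% for Jmjd2c, and over protein-coding genes 32.3% and 44.6%. Every gene in the list of JAK kinases and STAT factors had Jmjd2c (11 of 11), and 6 had Jmjd2a as well, including Jak3 (Jmjd2a peak 560 bp, Jmjd2c peak 1454 bp), Tyk2 (357 and 1357 bp), Stat2 (652 and 1335 bp) and Stat5b (954 and 1182 bp). The receptors that signal through STAT5 were near the level of all genes, with Jmjd2a at 4 of 15 and Jmjd2c at 6 of 15. Kit, Il3ra and Csf2ra had both, and Csf2rb, Csf2rb2, Il5ra and Epor had neither.

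A further list was labelled other inhibitors of JAK-STAT signalling. The label was not tested and need not hold for every gene listed, Sh2b1 and Ptpn11 among them. Genes of this list had Jmjd2a at 9 of 15 and Jmjd2c at 11 of 15. Those with both included the adaptor genes Sh2b1 (443 bp for Jmjd2a, 1978 bp for Jmjd2c) and Sh2b2 (775 and 1826 bp), the ubiquitin ligase gene Cblb (1513 and 1726 bp) and the STAT inhibitor gene Pias3 (1560 and 1706 bp). Ptpn6, Ptprc and Pias4 had neither. A list labelled SOCS box ubiquitin ligase subunits had Jmjd2c at 7 of 7 and Jmjd2a at 3 of 7 (Elob, Ube2f and Cul2). That label was not tested either and need not hold for every gene listed, Ube2f and Cul2 among them. Other SOCS box proteins, the Spsb, Wsb, Asb and Rab40 genes, had Jmjd2a at 8 of 26 and Jmjd2c at 12 of 26, both proteins being found among others at Spsb4, Asb1, Asb15 and Rab40c and neither at Spsb1, Wsb1, Asb2 and Asb4.

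Genes listed as STAT5 targets outside the SOCS and Pim families had Jmjd2a at 6 of 17 and Jmjd2c at 12 of 17. Whether STAT5 acts on each of them was not tested, and the label need not hold for every gene. Egr1 (1409 bp for Jmjd2a, 2315 bp for Jmjd2c), Bcl2 (515 and 1790 bp), Bcl2l1 (347 and 1778 bp) and Myc (432 and 1451 bp) had both, and Mcl1, Ccnd1, Osm and Id1 had neither. Genes for substrates of Pim kinases had Jmjd2a at 7 of 13 and Jmjd2c at 11 of 13, with both at Foxo1, Cdkn1b, Foxo3 and Akt1s1 and neither at Cxcr4. No list was tested against the others or against all genes, so no difference between lists is claimed.

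**Figure D5:**
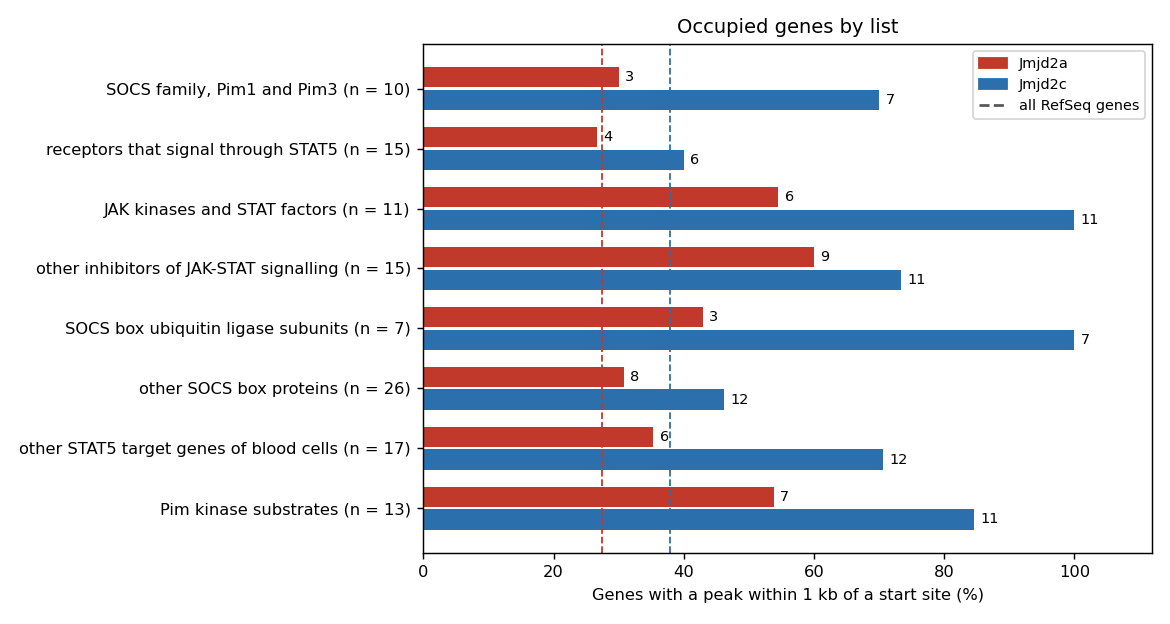
Share of genes with a peak within 1 kb of a start site (x axis, %) in each list of several genes, Jmjd2a above Jmjd2c, with the number of genes beside each bar and dashed lines at the shares over all RefSeq genes (27.4% for Jmjd2a, 37.9% for Jmjd2c). Over protein-coding genes the shares are 32.3% for Jmjd2a and 44.6% for Jmjd2c. The Jmjd2c share exceeds the Jmjd2a share in every list shown. Pim2, the only gene of its list, had both proteins and is not drawn.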

How the data were processed

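The submitters' processing notes name mm10 and the tools Bowtie 0.12.7, SAMtools and bedtools 2.25.0. How peaks were called (program, threshold, control, pooling) is not stated in the sources used here. Per the file headers, the deposited lists give positions in bp of called peaks with the nearest start site and a signed distance, and a further deposited table gives 6940 start-site windows bound by both proteins. These values, of no further unit, carry no score, height or depth. Positions were read as starting from 0 and are printed counting from 1. Recomputed distances equalled the deposited ones for 8974 of 8974 Jmjd2a and 10521 of 10521 Jmjd2c peaks with a start site.

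Start sites were tied to genes through RefSeq accessions (16875 of 17007 matched to GRCm38.p6), since older symbols of Socs4, Socs6 and Socs7 overlap. In entries joining several genes, each position went to the gene with the closest boundary. The most upstream deposited start lay off the RefSeq start by 464 bp at Socs2, 223 bp at Socs4, 401 bp at Socs5, 157 bp at Socs6 and 259 bp at Socs7. Genes for which the files name no start were counted as having neither protein, in the shares over all genes as well. For the members among them, Cish and Pim1, gaps to the nearest peaks were measured from the RefSeq start. Promoter windows also use RefSeq starts. Named genes are the 10 members and, from each other list, up to 4 with both proteins by width of the Jmjd2c peak and up to 4 with neither in list order. The members and lists were chosen with earlier results of these data known, so counts are set beside the share over all genes and no list was tested. The distance step was checked on simulated data. Python 3.11.15, numpy 2.4.6, pandas 2.3.3, scipy 1.17.1 and matplotlib 3.10.9 were used.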

Additional observations from a re-analysis of the deposited data

How the results depend on the processing

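Jmjd2a, Jmjd2c and both proteins were counted at 3, 7 and 3 members within 500 or 5000 bp of a start site, as at 1000 bp. The shares over all genes were 26.5%, 37.6% and 23.8% at 500 bp and 28.7%, 38.7% and 25.6% at 5000 bp. RefSeq start sites gave the same member counts, beside 30.8%, 43.0% and 27.6% of 19532 genes. In that setting the RefSeq gene boundary served as the start of Socs2, Socs5, Socs6 and Socs7, which have no promoter window. Among peaks within 1000 bp of a start site, peaks of both proteins overlapped at 3 members (Socs5, Socs6 and Pim3). Over all such peaks, 86.9% of Jmjd2a and 61.6% of Jmjd2c peaks overlapped the other list. At each of these members the shorter peak of a pair lay wholly inside the other. Only members with both proteins near a start site were counted, which leaves out the distal shared site named for Socs7. Requiring 50% of the shorter peak to overlap, or allowing a distance of 1000 bp, thus could not change the count. With the wider 50% of each list, a rank by width and not by signal, Jmjd2a was counted at 2 members (Socs5 and Pim3), Jmjd2c at 4 (Socs2, Socs4, Socs7 and Pim3) and both at 1 (Pim3), beside 16.5%, 22.9% and 10.0% of all genes. Under that setting the genes of the other lists fell to 20 with Jmjd2a, 45 with Jmjd2c and 15 with both, against 44, 70 and 41 of 104. Windows of 500 and 5000 bp gave 42 and 47, 70 and 70, and 39 and 43. With 1 base more between the TTC and GAA of the GAS consensus, the count was 0 of 6 members, against 2. Over the 23307 promoter windows of RefSeq genes, this longer form was found in 6.47% and the GAS consensus in 7.98%. The protein-coding background was chosen after seeing the data. No paired analysis was possible because the files hold no value per library. Sequencing depth is unknown, so how far it limits the missing calls was not tested.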
